A study of Mus musculus with 10 samples.

Results

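The regions described here carried ATAC-seq peaks in embryonic thymic epithelium and, at day 6, in a single sorted fraction, the mTEC1 cells. Peaks of all 10 lists were merged where they overlapped or touched. A merged region was kept when it was called in at least 3 of the 4 embryonic lists and in both mTEC1 lists, and in none of the 4 mTEC4 and mTEC2 lists. This gave 229 of 351411 merged regions (0.0652%). The regions were thus chosen by their peak calls, and the pattern of calls is a description that was not tested.

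ATAC-seq uses a transposase that cuts and tags open DNA, and was applied to thymic epithelial cells (TEC) sorted from enzyme-digested thymi of wild-type C57BL/6 mice. The 5 groups of 2 libraries were E15 and E17 (embryonic day 15 and 17) and the fractions mTEC1, mTEC2 and mTEC4 taken at day 6. No label spells out the fractions or says whether libraries share animals, and the peak names call mTEC1 eTEC, mTEC2 Hi and mTEC4 aTEC. Spread between replicates may therefore be technical, and effects of age and of the sort cannot be told apart between embryonic and day 6 libraries.

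The thymus epithelium forms from the pharyngeal endoderm, expresses the forkhead factor Foxn1 and later divides into cortical and medullary cells. Medullary cells include a type that secretes the chemokine Ccl21a, which draws developing T cells into the medulla, and a type that expresses Aire and displays antigens of other tissues. Open regions away from gene starts often hold enhancers, and such regions differ between cell types more than promoters do.

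The lists held 40858 to 151646 peaks, the shortest being mTEC2 replicate 2 and the longest E17 replicate 2. Read depth is unknown, and a site without a peak may still be open. Loci of the epithelial genes Epcam, Krt8, Krt18 and Cdh1, taken with 10 kb on each side, held at least 1 called region in every library. Other epithelial loci did not. Foxn1 held 0 in both mTEC4 libraries. Krt5 held 0 in both mTEC4 libraries, mTEC1 replicate 1 and mTEC2 replicate 2, and Krt14 held 0 in mTEC4 replicate 2 and mTEC1 replicate 1. The locus of the leukocyte gene Ptprc held 2 to 7 in every library, with 7 in mTEC2 replicate 1, and what blood cells contribute to the lists was not tested.

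Of the regions, 23 overlapped a promoter window of the RefSeq table (build GRCm38.p6, the same build as mm10), which runs from 250 bases before to 50 after a start site. Such overlaps were not counted over other regions. A protein-coding start site lay within 1 kb of 11.3% of the regions. The same share was 14.6% for regions in at least 3 embryonic lists and 4.73% for all merged regions. The 250 bases before the start are printed for 5 of the 23. Ccl21a and Pdpn are genes of the medullary list described below, and Ttc24, Fam131c and Rab15 are the protein-coding genes of this kind with the strongest peaks within the lists. Each sequence is written 5′ to 3′ on the strand of its gene, and capitals mark matches to any of 20 short motifs on either strand.
Ccl21a, chr4:42773992-42774241, minus strand: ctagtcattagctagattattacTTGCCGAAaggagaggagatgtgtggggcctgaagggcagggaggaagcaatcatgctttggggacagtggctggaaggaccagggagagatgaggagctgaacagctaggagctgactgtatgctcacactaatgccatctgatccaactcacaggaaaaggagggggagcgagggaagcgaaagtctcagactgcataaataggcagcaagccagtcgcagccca
Pdpn, chr4:143299565-143299814, minus strand: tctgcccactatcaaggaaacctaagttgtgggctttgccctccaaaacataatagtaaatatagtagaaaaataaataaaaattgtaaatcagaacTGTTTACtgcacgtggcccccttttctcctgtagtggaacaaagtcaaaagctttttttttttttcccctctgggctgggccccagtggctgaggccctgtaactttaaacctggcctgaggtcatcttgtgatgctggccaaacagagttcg
Ttc24, chr3:88078305-88078554, minus strand: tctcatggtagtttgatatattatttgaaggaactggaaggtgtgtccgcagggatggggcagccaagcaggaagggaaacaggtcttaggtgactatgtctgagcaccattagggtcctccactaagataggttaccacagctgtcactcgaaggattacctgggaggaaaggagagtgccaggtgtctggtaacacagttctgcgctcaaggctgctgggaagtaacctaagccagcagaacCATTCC
Fam131c, chr4:141367942-141368191, plus strand: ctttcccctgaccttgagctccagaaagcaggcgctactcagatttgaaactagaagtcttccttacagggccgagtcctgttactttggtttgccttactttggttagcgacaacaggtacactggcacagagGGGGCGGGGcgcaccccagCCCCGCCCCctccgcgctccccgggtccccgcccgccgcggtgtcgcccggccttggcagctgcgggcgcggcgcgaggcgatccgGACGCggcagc
Rab15, chr12:76822525-76822774, minus strand: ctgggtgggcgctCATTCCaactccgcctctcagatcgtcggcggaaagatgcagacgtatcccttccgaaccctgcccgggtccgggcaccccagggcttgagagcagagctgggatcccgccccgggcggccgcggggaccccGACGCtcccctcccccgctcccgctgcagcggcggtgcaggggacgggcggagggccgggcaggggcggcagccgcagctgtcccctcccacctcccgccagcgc

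The called region covered all 250 printed bases at Ccl21a, Pdpn, Fam131c and Rab15 and 220 of them at Ttc24. The Ccl21a sequence holds the C/EBP pattern TTGCNNAA at 227 to 220 bases before the start, and the Pdpn sequence the forkhead motif TGTTTAC at 153 to 147. The Ttc24 sequence ends in the TEAD motif GGAATG on the opposite strand. Fam131c has the Sp motif GGGGCGGGG on both strands, at 116 to 108 and 97 to 89 bases before the start, and GACGC, the core bound by Foxn1, at 11 to 7. Rab15 has GGAATG on the opposite strand at 237 to 232 and GACGC at 105 to 101. The Rab15 G+C content over these bases was 75.2%, against 66.4% for Fam131c, 52.8% for Ccl21a, 50.4% for Ttc24 and 43.2% for Pdpn. A match is a description of letters and no evidence of binding.

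Few of the sites that embryonic TEC shared with mTEC1 were missing from the other fractions. At least 3 embryonic lists called 87001 regions, and 17247 of these were called in both mTEC1 lists. Of the 17247, 16855 were also called in an mTEC2 list (97.7%), 14851 in an mTEC4 list (86.1%), and 229 in neither (1.33%). By the same rule 2010 regions were shared with mTEC2 only, 9.28% of the 21668 called in at least 3 embryonic and both mTEC2 lists (0.572% of all merged regions). With mTEC4 only there were 156, 1.16% of 13429 (0.0444% of all merged regions).

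These numbers changed when single libraries were left out, which also loosens the rule. With 1 of the 2 lists of a fraction left out, its other list alone has to call the region. With a list of another day 6 fraction left out, 1 list fewer has to be without a call. Without mTEC1 replicate 1 the rule gave 4172 regions, without mTEC1 replicate 2 it gave 629 and without mTEC2 replicate 1 it gave 1162. The mTEC2-only number was 13976 without mTEC2 replicate 2, 3501 without mTEC2 replicate 1 and 4405 without mTEC1 replicate 2. The mTEC4-only number was 1483 without mTEC4 replicate 1, 453 without mTEC4 replicate 2 and 436 without mTEC2 replicate 1. The mTEC2-only set was the largest of the sets with all lists. Without mTEC1 replicate 1 the mTEC1-only set stood at 4172 and the mTEC2-only set at 2278. The 2 numbers are not like for like, since mTEC1 then needed 1 list and mTEC2 both. When every list was cut to equal length, its 40858 peaks of highest −log10 q, 126 regions were found for mTEC1, 1047 for mTEC2 and 58 for mTEC4.

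**Figure D1:**
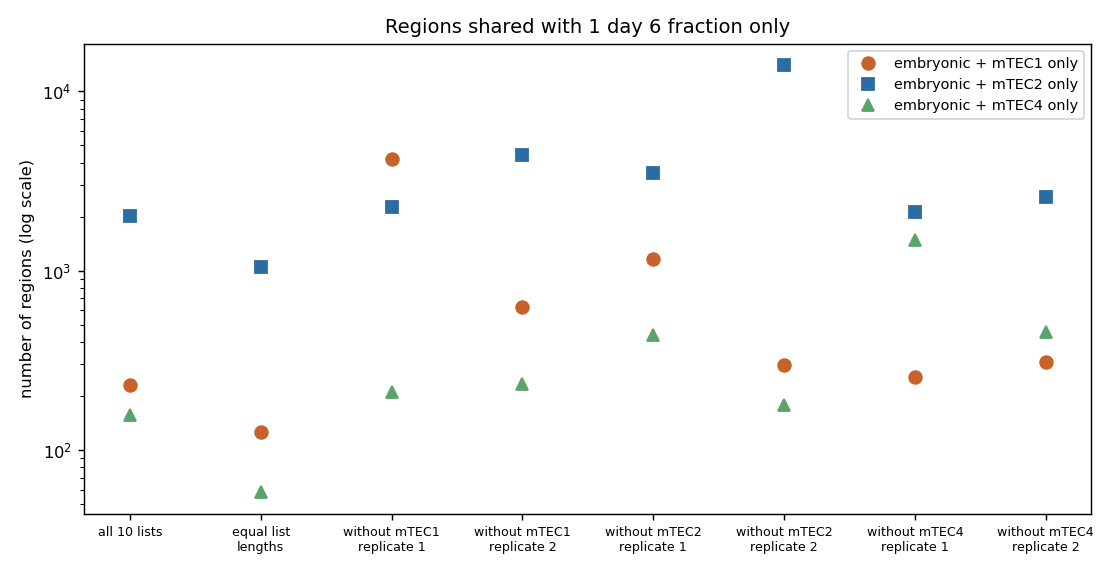
Number of regions (log axis) called in at least 3 embryonic lists and in every list of 1 day 6 fraction but in no other day 6 list, with all lists, at equal list lengths and without each day 6 library. The mTEC1-only number stands at 229 with all lists and at 4172 without mTEC1 replicate 1, where only 1 mTEC1 list has to call the region.

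The requirement for embryonic calls lay in a thin part of the distribution. All 4 embryonic libraries called 182 of the 229 regions, and 3 called the other 47. Just outside the rule, 43 regions with the same day 6 calls had 2 embryonic calls and 111 had 1, while 1938 had none. Among the 47, the missing library was E17 replicate 1, the shortest embryonic list, in 26 cases, E15 replicate 1 in 10, E15 replicate 2 in 10 and E17 replicate 2 in 1. A further 1112 regions failed the rule through a call in exactly 1 of the 4 other day 6 lists, and in 934 of them that list was mTEC2 replicate 1. Regions with 4 embryonic calls had a median width of 423 bp, those with 3 of 335 bp and those with 2 of 310 bp.

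The regions lay at gene ends about as often as embryonic regions in general. Of the 227 on chromosomes with annotated genes, 38 lay within 1 kb of an end of a protein-coding gene (16.7%), 86 lay inside a gene (37.9%) and 103 lay elsewhere (45.4%). The share at gene ends was 6.92% for the mTEC2-only regions, 21.2% for the mTEC4-only regions, 18.0% for all regions in at least 3 embryonic lists, 6.46% for all merged regions and 70.6% for regions in all 10 lists. These differences were not tested, since regions of the same libraries are not replicates. The share in the mTEC1-only set was 7.14% at equal list lengths and 8.46% without mTEC1 replicate 1. The regions at gene ends were wider, with a median of 598 bp against 378 bp inside genes and 367 bp elsewhere. They were spread over the genome, with 20 on chromosome 11, 19 on chromosome 2 and 18 on chromosome 1, and 0 overlapped an annotated miRNA hairpin.

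**Figure D2:**
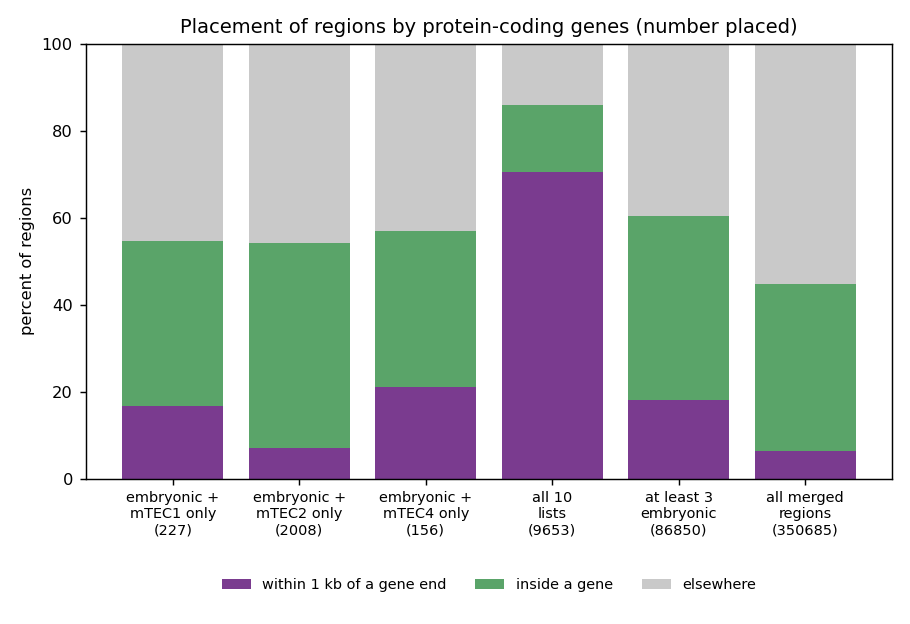
Percent of regions within 1 kb of an end of a protein-coding gene, inside a gene or elsewhere, for the mTEC1-only regions, the corresponding mTEC2 and mTEC4 sets, regions in all 10 lists, regions in at least 3 embryonic lists and all merged regions. Gene ends make up 16.7% of the mTEC1-only regions and 70.6% of regions in all 10 lists.

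Neighbouring regions were counted within 10 kb. A region called in an mTEC2 list lay within 10 kb of 180 of the 229 (78.6%), and a region called in an mTEC4 list within 10 kb of 158 (69.0%). The same shares, each region itself left out, were 69.7% and 60.5% over regions in at least 3 embryonic lists and 62.8% and 62.2% over all merged regions, so such a neighbour is common at any region. A region called in all 10 lists lay within 10 kb of 35 (15.3%), against 10.1% of the mTEC2-only and 19.2% of the mTEC4-only regions. This share was not counted over all merged regions or over regions in at least 3 embryonic lists. Another of the 229 regions lay within 10 kb of 2.

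A merged region can chain neighbouring peaks, so the overlap of the peaks themselves was counted. All 6 or all 5 calling lists shared at least 1 base in 186 of the 229 regions (81.2%), with a median shared stretch of 71 bp. In the remaining regions no base was covered by every calling list. The embryonic peaks shared a base in 226 regions, and the 2 mTEC1 peaks shared a base in 197. The same count over all calling lists was 87.4% for the mTEC2-only and 78.2% for the mTEC4-only regions.

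By the authors' −log10 q, peaks at these sites were near or above the level of the whole list in embryonic libraries and below it in mTEC1. The rule asks for repeated embryonic calls and for no mTEC2 or mTEC4 call, while the whole lists were not filtered in this way. The peaks at the regions and the whole lists are therefore not like for like, and no equally filtered set was counted. In embryonic lists 42.2, 45.3, 55.8 and 72.2% of the peaks had a −log10 q of at least 5, in the order E15 replicates 1 and 2 and E17 replicates 1 and 2. The same shares of the whole lists were 41.7, 43.3, 48.8 and 46.3%. In mTEC1 replicate 1, 4 of 230 peaks (1.74%) and in replicate 2, 2 of 234 (0.855%) reached that value, against 8.91 and 11.6% of the whole lists. Median peak width at the regions was 218 to 311 bp in embryonic lists, and 86 and 107 bp in the mTEC1 lists. Over the whole lists it was 185 to 200 bp in embryonic lists, and 135 and 115 bp in mTEC1 replicates 1 and 2.

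Because q values belong to their own list, each peak was ranked within its list, as the percent of peaks with a lower −log10 q, tied peaks sharing their mean rank. In mTEC1 replicate 1, 46 of the 229 regions were tied at percentile 23.1, and in replicate 2, 32 were tied at 19.4, while at most 2 regions were tied in any embryonic library. Where a value of 23.1 in mTEC1 replicate 1 or of 19.4 in replicate 2 is given below, it is this tied value. The mean percentile at the regions was 53.3 in both E15 libraries, 52.3 and 66.2 in the E17 libraries, and 46.4 and 47.2 in the mTEC1 libraries. The 4 embryonic values lay above both mTEC1 values. The means were 56.3 ± 6.64 (SD, n = 4) and 46.8 ± 0.587 (SD, n = 2), a difference of 9.50 percentile points. No test is given, since these are the peaks whose calls chose the regions. When peaks under a −log10 q of 2 were left out before the rule was applied, the difference was -3.05 points. That value covers 238 newly chosen regions, among which only 43 of the 229 were found again. Ranked by fold enrichment the difference was 5.92. The corresponding difference, embryonic minus the day 6 fraction, was 12.4 points for the mTEC2-only regions and -3.76 for the mTEC4-only regions. The embryonic mean was also the higher in the 1112 regions that failed the rule through 1 other day 6 list. There it was 68.3, against 51.4 and 57.5 in mTEC1 replicates 1 and 2, so this order is not particular to the 229 regions.

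Rank within the list was shared among embryonic libraries and hardly between the mTEC1 libraries. Across regions, Spearman's correlation was 0.65 to 0.80 between embryonic libraries (193 to 218 regions), 0.10 between the 2 mTEC1 libraries (229 regions) and 0.09 to 0.24 between an embryonic and an mTEC1 library. These values describe regions that share libraries and are given with no test. In 59 of 229 regions (25.8%) every embryonic percentile was above both mTEC1 percentiles, and in 17 (7.42%) both mTEC1 percentiles were above every embryonic one. With 4 embryonic and 2 mTEC1 lists, each such order is 1 of 15 possible arrangements, a share of 0.0667. A single region with such an order therefore says little. In 27 regions the percentile was over 50 in every calling list.

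**Figure D3:**
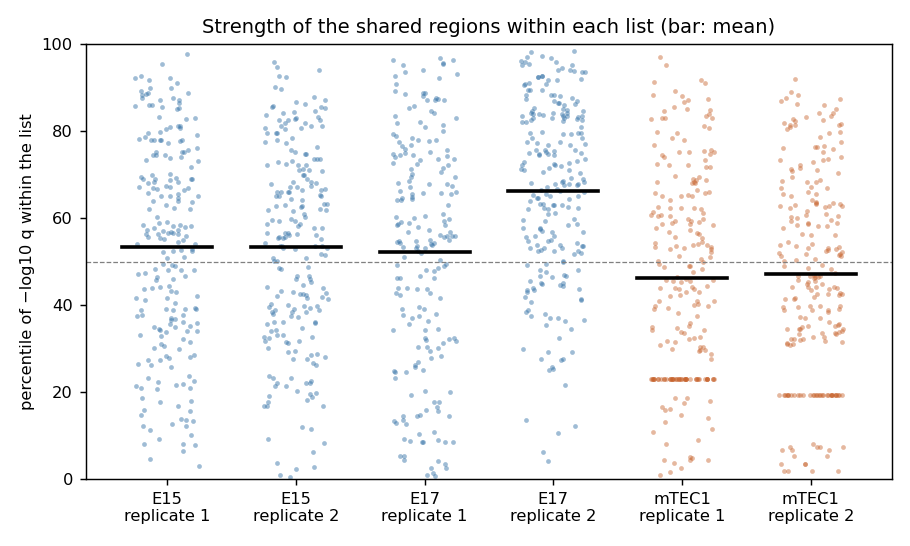
Percentile of −log10 q within the list for the peak at each shared region (points) and the mean (bar) in the 4 embryonic and 2 mTEC1 libraries. Means are 52.3 to 53.3 in 3 embryonic libraries, 66.2 in E17 replicate 2 and 46.4 and 47.2 in mTEC1, where the horizontal bands of points are tied peaks.

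The regions were also described by their nearest genes, using gene lists that were chosen with earlier results of these data known. Each region was given its nearest protein-coding gene within 100 kb, which assigned 204 regions to 200 genes, 0.914% of the 21887 protein-coding genes. Of the 12 genes of the Ccl21a-high medullary list, 3 had a region, Ccl21a and Pdpn among them. The mTEC2-only regions were also nearest to 3 of the 12, against 7.16% of all genes, and the mTEC4-only regions to 0 of 12, against 0.658%. The counts are descriptions without a test. None of these 3 regions was found again at equal list lengths or when peaks under a −log10 q of 2 were left out.

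Ccl21a encodes the chemokine that marks this medullary type. Its region, at 42773775 to 42774250 on chromosome 4, spans the start site of the gene and the promoter printed above. The −log10 q was 3.38 in E15 replicate 1, 4.76 in E17 replicate 1 and 2.75 in E17 replicate 2, with no peak in E15 replicate 2. It was 2.21 and 1.93 in the mTEC1 libraries. As percentiles these were 39.3, 49.0 and 32.6 in the embryonic lists and 56.8 and 52.0 in the mTEC1 lists, so the site ranked higher in both mTEC1 lists than in any embryonic list. All 5 calling lists shared 96 bp of it. Without E15 replicate 1, E17 replicate 1 or E17 replicate 2 the rule no longer kept this region. Elsewhere within 10 kb of the gene, regions at 42766577 to 42766942 and 42767294 to 42767434 were called in all 10 lists. One at 42782079 to 42782757 was called in 7, with both mTEC1 lists and no mTEC4 list among them. The promoter windows of Ccl21d, Gm13304 and Gm10591, also on chromosome 4, matched that of Ccl21a at 99.3%, 99.0% and 99.0% of 299 compared bases. The sources used here do not say how reads matching several copies were treated.

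Pdpn encodes podoplanin, a membrane glycoprotein of stromal and some epithelial cells. Its region at 143299061 to 143300065 on chromosome 4 covers the start site. The percentile was 52.9 and 59.5 in the E15 lists, 32.5 and 47.0 in the E17 lists, and 83.1 and 31.9 in the mTEC1 lists. The mTEC1 libraries thus lay on either side of all 4 embryonic values, and no base was shared by all 6 peaks. Without E17 replicate 2 the rule no longer kept it. Another region inside the gene, at 143288516 to 143289205, was called in 8 lists, all but those of mTEC4.

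Of the 23 gene lists, 7 held a gene with such a region. Besides the medullary genes these included Esrp2 (1 of 20 epithelial genes), Notch2 (1 of 26 signalling genes), Bcl11b (1 of 16 T cell genes), Cdh5 (1 of 10 endothelial genes) and Mki67 (1 of 12 cell cycle genes). The 16 lists with none included the 15 TEC identity and cortical genes, the 16 basal and adhesion genes, the 14 Aire-stage genes, 16 NF-kB genes, 12 AP-1 genes and 16 keratinocyte-like genes. They also included the 15 tuft cell genes, 14 dendritic cell and macrophage genes, 8 B cell genes, 8 erythroid genes, 14 mesenchyme genes and 9 muscle genes. At a background of 0.914% of genes, such lists are expected to hold few, and a count of 0 says little.

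Bcl11b, a transcription factor that commits cells to the T lineage, had the strongest of these regions, inside the gene at 107930805 to 107931657 on chromosome 12. Its percentile was 79.6 and 85.7 in E15 and 84.7 and 88.3 in E17 but 18.0 and 8.08 in mTEC1. The 6 peaks shared 245 bp. Mki67 encodes the proliferation marker Ki-67, and its region lay 5.28 kb away at 135721725 to 135722686 on chromosome 7, with percentiles of 89.8, 66.0, 74.8 and 77.6 in embryonic and 53.1 and 84.0 in mTEC1 lists. The 2 groups overlapped there. It was the 1 region of a listed gene that was found again at equal list lengths.

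Esrp2 encodes an epithelial splicing regulator. Its region at 106138177 to 106138522 on chromosome 8 lay 0.984 kb from the gene and had percentiles of 65.7, 72.4, 39.6 and 64.7 in embryonic and 41.0 and 41.5 in mTEC1 lists. Cdh5 encodes the endothelial cadherin, and its region lay 9.69 kb from the gene, at percentiles of 44.0 to 83.0 in embryonic lists and 65.2 and 19.4 in mTEC1 lists. Notch2, a receptor gene, had an internal region at percentiles of 26.7 to 48.1 and of 52.8 and 42.5. At all of Esrp2, Cdh5 and Notch2 the order of the embryonic and the mTEC1 libraries was mixed. At Notch2 mTEC1 replicate 1 lay above all embryonic values, and at Cdh5 mTEC1 replicate 2 lay below them, at the tied value that 32 of the 229 regions share.

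The 15 regions of highest median percentile were mostly narrower than the overall median of 406 bp and away from gene ends. The first, 310 bp wide at 140259001 to 140259310 on chromosome 4, lay 12018 bp from Igsf21, which encodes a synaptic adhesion protein. Its −log10 q was 18.4 and 14.2 in E15, 22.3 and 37.5 in E17, and 2.01 and 3.77 in mTEC1, or percentiles of 95.4, 90.2, 96.8, 98.2, 48.4 and 81.7. The second, at 45672819 to 45673074 on chromosome 1, had no protein-coding gene within 100 kb, the nearest lying 122 kb away. It ranked at 97.7, 95.8, 88.8 and 95.3 in embryonic and at 88.3 and 62.5 in mTEC1 lists. In both regions all embryonic values were above all mTEC1 values.

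Ttc24, which encodes a tetratricopeptide repeat protein, had the strongest region at a start site, at 88078119 to 88078524 on chromosome 3. Its percentile was 86.6 to 94.0 in the embryonic lists and 42.4 and 3.49 in the mTEC1 lists, so the groups were far apart. Regions inside Uvrag, an autophagy gene, and P2rx3, an ATP-gated channel gene, had the same order. Uvrag stood at 88.8 to 94.1 and P2rx3 at 86.1 to 95.3 in embryonic lists, against 33.7 and 37.2 and against 30.4 and 19.4 in mTEC1 lists.

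Other regions of the 15 ranked high in mTEC1 too. A region inside Ptprd, a receptor phosphatase gene, at 77558900 to 77559084 on chromosome 4 had percentiles of 89.8, 94.6, 78.8 and 82.1 in embryonic lists and of 81.2 and 91.9 in mTEC1 lists. Its −log10 q of 6.12 in mTEC1 replicate 2 was the highest of that library at the 229 regions. A region at 31189119 to 31189358 on chromosome 6, with no protein-coding gene within 100 kb, ranked at 73.6 to 85.5 in embryonic and at 91.4 and 85.1 in mTEC1 lists. A region inside Mcf2l, which encodes a guanine nucleotide exchange factor, ranked at 51.8 to 93.7 and at 85.1 and 82.7. The groups overlapped at Ptprd and Mcf2l, while mTEC1 replicate 1 was above all embryonic values at the chromosome 6 region.

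The rest of the 15 lay inside Adamts2, Nedd4l and Myo18a, near H4c11, Sbno1 and Klf17, and on chromosome 14 away from genes. At Klf17 the percentile was 91.6 in mTEC1 replicate 1 and 19.4 in replicate 2, and E15 replicate 1 had no peak. H4c11 is a histone gene, and its region lay 0.327 kb from a region called in all 10 lists. The regions at Adamts2, Mcf2l, Myo18a, Ptprd and Sbno1 and 2 without a gene within 100 kb were found again at equal list lengths.

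**Figure D4:**
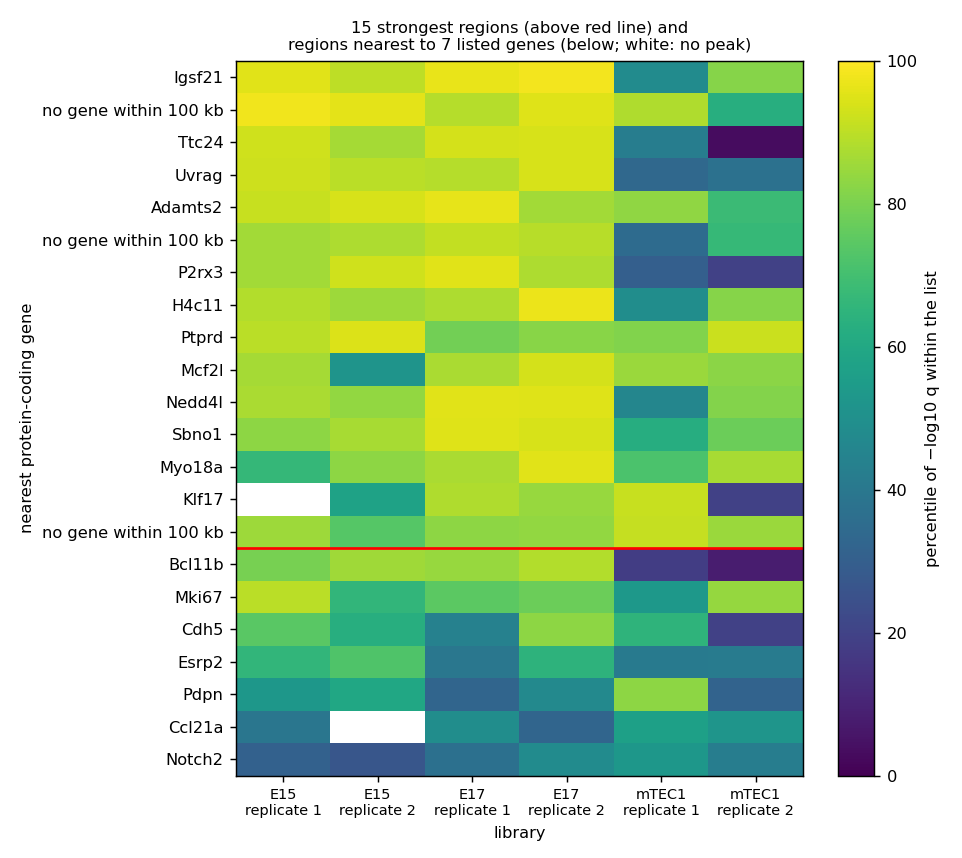
Percentile of −log10 q within each list (colour) for the 15 strongest shared regions and, under the red line, the regions nearest to 7 listed genes, in 4 embryonic and 2 mTEC1 libraries, with white for no peak. Bcl11b stands at 79.6 to 88.3 in embryonic lists and at 18.0 and 8.08 in mTEC1 lists, while Ptprd is high in all 6.

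Selected with their values in view, 6 regions reached a −log10 q of 5 in an mTEC1 list. The highest was 8.19 in mTEC1 replicate 1, at 72917278 to 72917662 on chromosome 17, 643 bp from Lbh, which encodes a transcriptional cofactor of limb and heart development. That region ranked at 96.9 and 69.6 in mTEC1 lists and at 4.41 to 48.2 in embryonic lists, so both mTEC1 values were above all embryonic values. The others lay nearest to Tnfrsf23, with 6.82 in replicate 1, Klf17, Cct8 and Ptprd, and in the chromosome 6 region named above.

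The genes nearest to the most regions had 2 each. Adamts2, which encodes a procollagen-processing protease, had them inside the gene at 50713740 to 50713904 and 50646131 to 50646472 on chromosome 11. The first ranked at 86.2 to 96.3 in embryonic and at 83.4 and 68.3 in mTEC1 lists. The second ranked at 54.4 to 84.2 and at 23.1 and 79.6. Mcf2l had the second of its regions at 12996994 to 12997557 on chromosome 8, ranking at 54.4 to 73.7 and at 23.1 and 31.4. The other two genes were BC107364 and Gm5294.

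Beyond those printed, regions overlapped the promoter windows of the adenylyl cyclase genes Adcy1 and Adcy5, the Polycomb gene Pcgf2, the kinase gene Wnk4, the mitochondrial carrier gene Ucp2 and the linker histone gene H1f5. The others with a protein-coding gene were at Wscd1, Coro6, Cpxm1, Mdfi, Dhtkd1, Cpt1c and Pom121l2, and 5 overlapped windows of other gene types. Adcy1 ranked at 23.2 to 55.6 in embryonic lists and at 40.3 and 35.2 in mTEC1 lists. Adcy5 ranked at 1.09 to 63.1 and at 45.6 and 35.8. Ucp2 ranked at 13.6 to 46.7 in embryonic lists, and at 5.06 and 84.2 in mTEC1 lists, which lay outside that range on either side. At Cpxm1 mTEC1 replicate 1 ranked at 89.2, above the 30.7 to 77.1 of the embryonic lists.

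The 23 windows had a median G+C content of 59.0% and 14 CpG sites, against 53.0% and 7 over 32544 windows of the table. GACGC, the Foxn1 core, was in 11 of the 23 (47.8%) and in 27.3% of all windows, and it contains a CpG itself. GGAATG (TEAD) was in 6 (26.1%, against 14.6%), GGGGCGGGG (Sp) in 6 (26.1%, against 11.5%) and TGANTCA (AP-1) in 1 (4.35%, against 7.79%). ATGCAAAT (Oct) was in 2 (8.70%, against 1.75%), TTGCNNAA (C/EBP) in 4 (17.4%, against 10.8%) and CCGGAAG (ETS) in 0, against 8.91%. The part that G+C content has in these shares was not tested.

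The 5 widest regions, of 1344 to 1561 bp, lay near Rnf103, across Vps25 and the Wnk4 start, at Dnajc6, inside Atxn1 and at Pom121l2. Only the one at Vps25 and Wnk4 had bases shared by all 6 lists, 66 in number. The widest, near Rnf103, ranked at 11.3 to 25.9 in embryonic and at 56.6 and 19.4 in mTEC1 lists.

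The loci of Foxn1, Aire, Psmb11, Trp63, Krt5 and Krt14, each with 10 kb on either side, held none of the 229 regions, although 5 to 41 regions were called there in all. Foxn1 had 12 regions, called 7 to 10 at a time in embryonic libraries, 1 and 6 in mTEC1, 5 and 2 in mTEC2 and 0 in both mTEC4 libraries. At Krt5 and Krt14, basal keratin genes, mTEC1 replicate 1 had 0 regions, and replicate 2 had 2 and 1. The other day 6 fractions had similarly few. Krt5 had 0 and 0 in the mTEC4 libraries and 3 and 0 in the mTEC2 libraries. Krt14 had 1 and 0 in mTEC4 and 1 and 1 in mTEC2.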

How the data were processed

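The members, gene lists and tests were chosen with earlier results of these data known. The tools named in the submitters' processing notes are cutadapt, Bowtie2, Picard and MACS2, with build mm10. The sources used here give no versions or settings, nor any shift of read ends. Each library has its own deposited list of broad peaks, of nucleosome-free chromatin per the labels, so replicates were not pooled. The fold enrichment of each peak is the authors' ratio to background within that list, and the deposited −log10 q, never under 1.0002, was also calculated by their caller. Both served only within a list.

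The 882163 peaks were merged with Python 3.11.15, pandas 2.3.3 and numpy 2.4.6 (merging and call rule tested on simulated data). Genes came from a RefSeq table of GRCm38.p6 with no strand, and start sites from RefSeq promoter windows. Values are described without a test, since the rule used the calls. A planned exact permutation test of peak strength is not given for that reason. The Dixon limit given below serves only to flag a value. All 309 entries of 23 gene lists were matched. Named regions were the 15 of highest median percentile, the 5 widest, those nearest to listed genes or to genes with the most regions, those over promoter windows, and 7 fixed loci. Of the promoters, 5 were printed, with preference for listed and protein-coding genes set after the values were seen.

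Motifs searched on both strands, which may overlap each other, were AP-1 TGANTCA, Foxn1 core GACGC, forkhead TGTTTAC, grainyhead AACCGGTT, TEAD GGAATG, Runx TGTGGTT, ETS CCGGAAG, NF-kB, IRF, Klf GGGTGTGG, Sp GGGGCGGGG, CTCF, NFI, C/EBP TTGCNNAA, Oct ATGCAAAT, the site AGATAAG of Gata factors, Sox CATTGTT, Nrf1, NF-Y CCAATCA and Pbx TGATTGAT. Alternatives were a higher q limit, equal list lengths, 2 or 4 embryonic calls, merging over 100 bp, 2 kb for gene ends, rank by fold and each library left out. How many regions were found again under each alternative, and how many were tied in rank, was counted after the first results were seen. Some regions nearest to listed genes are not reported here. Promoter windows like that of Ccl21a were sought without gaps, at shifts of up to 10 bases and at least 80% identity.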

Additional observations from a re-analysis of the deposited data

Results flagged for a closer look

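The mean within-list percentile of the regions was 66.2 in E17 replicate 2 and 52.3 to 53.3 in the other 3 embryonic libraries. The gap of E17 replicate 2 to the nearest of them was 0.932 of the whole range, above the Dixon limit of 0.829 for 4 samples, with E15 and E17 treated as 1 group. The limit serves here only to flag a value, since calls in these lists chose the regions and the ages were pooled. Its list is also the longest, at 151646 peaks, and it called 228 of the 229 regions. Chance alone would mark about 1 in 20 such groups, and 4 measures were examined. Without E17 replicate 2 the embryonic minus mTEC1 difference was 8.93 points.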

How the results depend on the processing

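A similar number of regions did not mean the same regions. Leaving out peaks under a −log10 q of 2 gave 238 regions, but only 43 of the 229 (18.8%) were found again. At equal list lengths there were 126, with 32 of the 229 (14.0%) found again. With all 4 embryonic calls there were 182, with at least 2 there were 272, and with peaks up to 100 bp apart merged 237, which held all 229. Leaving out a library, with the rule applied to the lists that remained, gave 184 to 4172 regions. The mTEC2-only number was 1259 with the higher q limit, 1047 at equal list lengths and 1747 to 13976 with a library left out. The mTEC4-only number was 92, 58 and 111 to 1483 in the same order. The share at gene ends was 7.14% at equal list lengths, 24.7% with 2 kb counted as a gene end and 8.46 to 19.9% with a library left out, while median width ran from 343 to 452 bp.

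The percentile difference of 9.50 points was -3.05 with the higher q limit, 5.92 with rank by fold, 5.95 with at least 2 embryonic calls and 7.89 to 14.1 with a library left out. The q limit, the number of embryonic calls and the library left out also changed which regions entered. A replicate block, in which arrangements stay within a replicate number, cannot change the percentile difference and bears only on the test not given here. Deviations of same-numbered libraries correlated by -0.05 to 0.01 over 182 regions. Regions are not replicates and ranks hardly repeated between the mTEC1 libraries, so this cannot show whether libraries were paired. The cause of these shifts was not tested. Depth is unknown, so absence from a list cannot be told apart from shallow sequencing.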
